A study of Cyprinus carpio with 18 samples.

Results

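The miR-200 family and miR-205 are microRNAs, small RNAs that pair with messenger RNAs and repress them, and both are known for their abundance in epithelia. They were followed here through the development of the common carp (Cyprinus carpio). The 4 rows measured were ccr-miR-200a, ccr-miR-200b, ccr-miR-429 and ccr-miR-205, written below without the carp prefix. They were taken by name, as every carp row numbered miR-141, miR-200, miR-205 or miR-429, and were 4 of the 2888 rows of the count files. No row analysed here is numbered miR-141. Small RNA came from whole embryos and larvae of wild-type fish of the FFRC No.2 strain, obtained by natural spawning. There were 6 groups, with 3 libraries each and 18 in all. Embryos were at cleavage, 2 hours post-fertilization (hpf), blastocyst, 6 hpf, gastrulation, 12 hpf, organ formation, 20 hpf, and hatching, 64 hpf. Larvae were 1 day post-hatching. RNA of each stage was pooled, and the labels name no separate spawnings for the 3 libraries of a stage. The p-values therefore cover the spread among these libraries only, and that spread may be technical. In whole embryos, fewer cells of a type and less RNA per cell cannot be told apart, and no library here is of sorted epithelium.

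Members of the miR-200 family are best known for repressing the Zeb transcription factors, which in turn repress E-cadherin and the miR-200 genes themselves, so that epithelial cells keep the family high and mesenchymal cells keep it low. miR-205 has another seed and comes from another gene, but also targets Zeb messages, and in mammals it is prominent in skin and other stratified epithelia. In zebrafish, miR-200 family members have been studied in olfactory neurons and in the ion-transporting cells of the larval skin.

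A microRNA recognises its targets mainly through its seed, bases 2 to 8 from the 5′ end. In vertebrates miR-200b and miR-429 share the seed AATACTG, while miR-200a and miR-141 have AACACTG, written here in DNA letters. The seeds differ by T4C, with the position counted from the 5′ end of the microRNA, the base of AATACTG first and that of AACACTG last. The count files do not print the sequences of named microRNAs, but they name 2742 predicted microRNAs by sequence, and these show both seeds in carp reads. In the deposited sequences 5 predicted rows had AATACTG at bases 2 to 8, or 0.182% of all predicted rows, and 5 had AACACTG, also 0.182%. The motifs were searched on the strand as deposited, at any position they occurred in 0.255% and 0.547% of predicted rows, and they do not overlap each other. The 3 rows with the most counts for each seed are shown because they carry the difference that splits the family, with the seed in capitals.
AACACTG row 1: tAACACTGtctggtaacgatgttt
AACACTG row 2: tAACACTGtctggtaacgatg
AACACTG row 3: tAACACTGtctggtaacgatgca
AATACTG row 1: tAATACTGcctggtaatgccat
AATACTG row 2: tAATACTGcctggtaatgatgat
AATACTG row 3: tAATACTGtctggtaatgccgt

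All 5 AACACTG rows shared their first 21 bases and differed in how they ended, while the 5 AATACTG rows shared only their first 8 bases. These rows bear no microRNA name in the files and none is given here. AACACTG row 1 had 52, 66 and 49 counts in the hatching libraries and 50, 52 and 91 in the larva libraries, and outside these it was listed only in cleavage 2, with 13 counts. AATACTG row 1 had 87, 55 and 45 counts at hatching and 118, 115 and 233 in larvae, and was listed in no earlier library. The other printed rows rested on fewer counts. Row 2 of AACACTG held 41 in all and row 2 of AATACTG 74. Row 3 of AACACTG had only 8, 6 and 5 counts, in cleavage 2, blastocyst 2 and organ formation 3. Row 3 of AATACTG had 23 counts, all in cleavage 1. A predicted row was listed in a library if it had at least 5 counts, which is 11.4 to 82.3 counts per 1000000 counts (CPM) in the libraries of the first 4 stages and 0.593 to 1.01 in those of hatching and larva. An absence from an early library therefore says little. The 10 rows together held 1208 counts, or 0.194% of the 623995 counts of the named members, and were left out of the members' values.

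Sequencing depth set how closely a level could be read. Libraries held 94306 to 135739 counts for cleavage, 369985 to 438398 for blastocyst, 157111 to 250751 for gastrulation and 60779 to 141161 for organ formation. The hatching libraries held 4964459 to 6694561 and the larva libraries 5642188 to 8427601. Levels below are CPM scaled with TMM factors, since miR-430 took up to 79.8% of a library and miR-738 up to 76.1%. The TMM factors lay between 0.196 and 2.19, and 1 CPM stood for 0.0513 counts in gastrulation 1 and for 16.2 in larva 3.

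Of the 4 members, miR-205 and miR-200a differed between stages, whereas miR-200b and miR-429 did not pass the test. miR-205 was low until gastrulation and high from organ formation on, and miR-200a was highest at cleavage. In edgeR's quasi-likelihood F test over the 6 stages, 2 of 4 members passed, and 75.3% of all 328 tested microRNAs did so, so most microRNAs of this series varied with stage and the members did not stand out by varying. The Benjamini-Hochberg adjusted p of this edgeR test was 4.42e-04 for miR-205, 0.0413 for miR-200a, 0.272 for miR-200b and 0.397 for miR-429. By the p of this test miR-205 ranked 55 and miR-200a 244 of the 328. The call of miR-200a was lost in 10 of the 18 omissions of a library, those of cleavage 2, blastocyst 2, blastocyst 3, gastrulation 2, gastrulation 3, organ formation 3, hatching 1 and each larva library, at an edgeR adjusted p of 0.00907 to 0.195 over the 18.

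**Figure D1:**
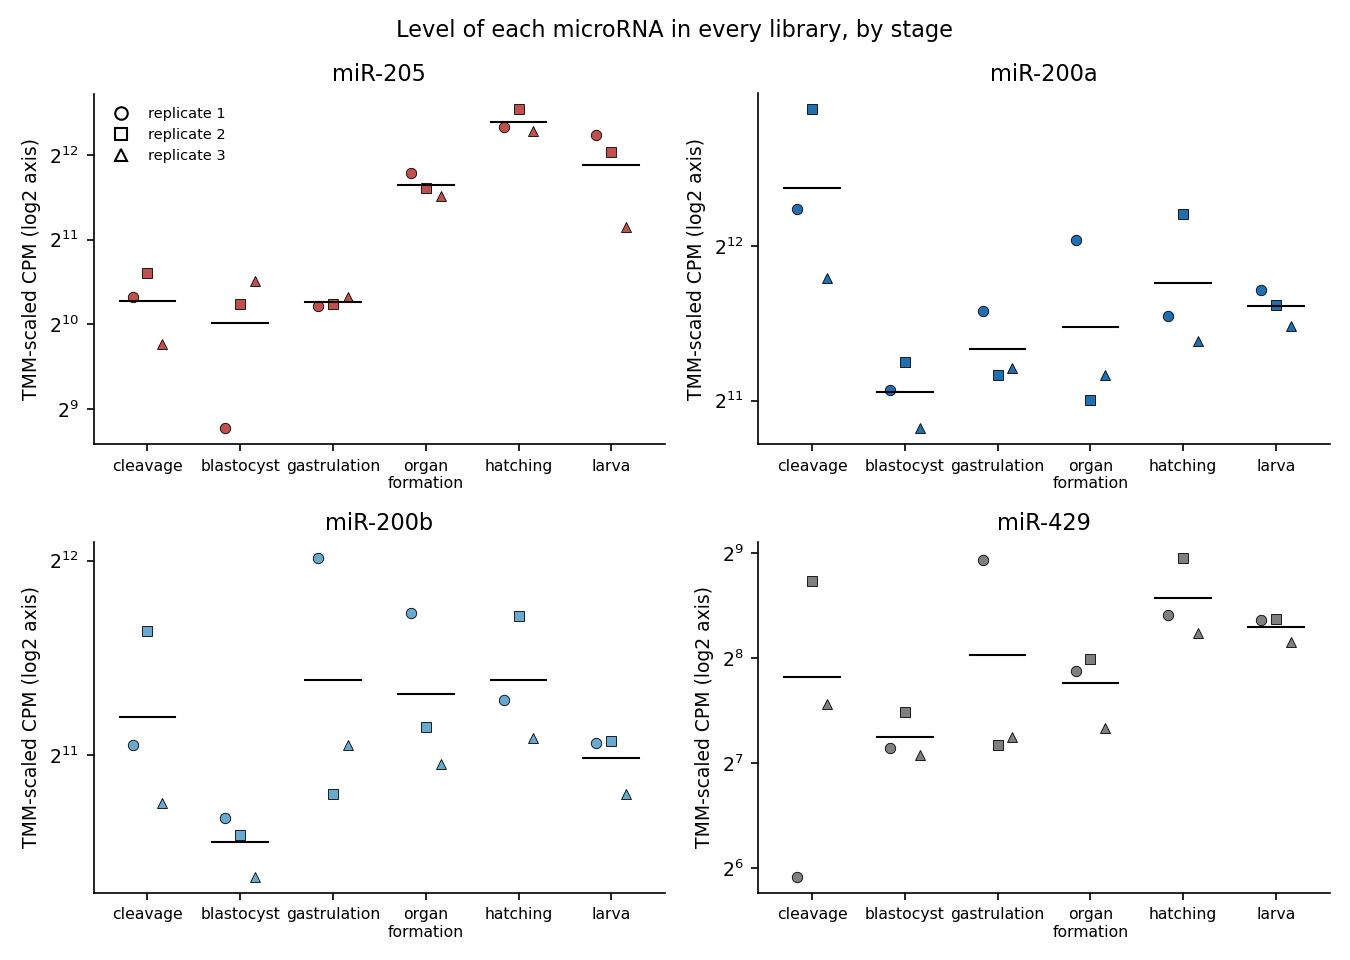
TMM-scaled CPM (log axis) of each of the 4 microRNAs in every library (points) with the mean of each stage (horizontal bars), stages in developmental order. The miR-205 libraries of organ formation, hatching and larva all lie above those of the first 3 stages, while those of miR-200b and miR-429 overlap between most stages.

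On the TMM scale, miR-205 separated the earlier from the later stages. It stood at 1282, 1563 and 868 CPM in the 3 cleavage libraries, 436, 1212 and 1458 CPM in those of blastocyst, and 1189.6, 1207 and 1283 CPM in those of gastrulation. At organ formation it stood at 3542, 3127 and 2919.5 CPM, at hatching at 5153, 5953 and 4994 CPM, and in larvae at 4827, 4194 and 2269 CPM. Every library of the last 3 stages was above every library of the first 3 in TMM-scaled CPM. Larva 3 was the lowest of the later ones and blastocyst 1 the lowest of all. How many of all tested microRNAs have libraries separated in this way was not counted. The same holds for the separations of miR-200a and miR-200b libraries given below. With miR-430 and miR-738 taken out of the totals, the separation of miR-205 did not hold. Larva 3 then had 36686 miR-205 counts of 8386441, a smaller share than the 323 of 48224 in cleavage 2. Scaled to those totals, 5 of the 9 later against earlier comparisons of miR-205 were called. The stage means were 1238 ± 349, 1035 ± 533, 1227 ± 49.7, 3196 ± 317, 5367 ± 514 and 3763 ± 1332 CPM in developmental order (SD, n = 3 each).

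With all 15 pairs of stages tested, miR-205 was called in 8, each time higher in a later stage of organ formation, hatching or larva than in an earlier one of cleavage, blastocyst or gastrulation. At organ formation miR-205 rose by 1.37 over cleavage on the log2 scale (SE 0.40, edgeR adjusted p = 0.0194), where 18.3% of all tested microRNAs were called higher. It rose by 1.62 over blastocyst (SE 0.41, edgeR adjusted p = 0.0126), against 6.71% called higher. Against gastrulation, the stage just before, the log2 fold change at organ formation was 1.38 (SE 0.41, edgeR adjusted p = 0.0537) and did not pass, while 1.83% of tested microRNAs were called higher. This comparison passed in 11 of 30 alternative settings and its log2 fold change lay between 1.30 and 1.74 with any 1 library left out.

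At hatching miR-205 rose by 2.11 over cleavage (SE 0.41, edgeR adjusted p = 8.63e-04), by 2.37 over blastocyst (SE 0.42, edgeR adjusted p = 8.75e-04) and by 2.13 over gastrulation (SE 0.41, edgeR adjusted p = 0.00169). The shares of all tested microRNAs called higher in these comparisons were 32.0%, 28.4% and 18.9%. In larvae it rose by 1.60 over cleavage (SE 0.41, edgeR adjusted p = 0.00444), by 1.86 over blastocyst (SE 0.41, edgeR adjusted p = 0.00325) and by 1.62 over gastrulation (SE 0.41, edgeR adjusted p = 0.00805), and here 31.1%, 28.7% and 21.6% of tested microRNAs were called higher. The rise at hatching and in larvae was thus shared with 18.9% to 32.0% of all tested microRNAs. At organ formation 18.3% were called higher against cleavage and 6.71% against blastocyst. Against gastrulation 1.83% were, and miR-205 was not among them. Ordered by mean log2 CPM, the stages ran blastocyst, cleavage, gastrulation, organ formation, larva and hatching. No neighbouring pair in this order passed the test, but cleavage and gastrulation were nearly level, and organ formation passed against cleavage and not against gastrulation. Among the named microRNAs with counts at a stage, miR-205 ranked 40 of 137 at cleavage, 44 of 136 at gastrulation, 22 of 134 at organ formation and 31 of 144 in larvae.

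The later stages were not only later but, at hatching and in larvae, also sequenced more deeply. By total counts organ formation was the shallowest stage, and its miR-205 counts were 512, 283 and 708. The gastrulation libraries, deeper by total counts, had 61, 193 and 144. With the TMM factors applied to the totals, the library sizes of organ formation and gastrulation overlapped. These raw counts therefore do not separate depth from level, and the part of depth was not tested. Among markers of other tissues, 0 of 5 muscle, 0 of 3 tested brain and 0 of 7 mesenchymal microRNAs were called in organ formation against gastrulation. Of all tested microRNAs 6.10% were called there in either direction, so 0 calls in lists this small lie near that share. The median log2 fold changes of the 3 lists were 1.08, −0.94 and −0.72, against −0.31 for all tested microRNAs. As a share of raw counts, a scale on which the median of all tested microRNAs shifted by 0.42, the 5 muscle microRNAs summed to between 2.17% and 2.94% at organ formation, against 0.115% to 0.551% at gastrulation. Within that list, miR-206 of skeletal muscle had a log2 fold change of 1.82 and miR-1 of muscle −0.55 on the TMM scale, and neither passed. Across the blastocyst libraries, miR-205 was lowest in blastocyst 1, where the muscle list held 0.0104% of counts with 2 of its 5 members at 0, and the brain list 0.0950%. In blastocyst 2 and 3 the muscle list held 0.207% and 0.356% and the brain list 0.406% and 0.698%. The part of these libraries in the blastocyst level of miR-205 was not tested. Without blastocyst 2, blastocyst 3 and gastrulation 2, the 9 later against earlier comparisons of miR-205 had log2 fold changes of 1.05 to 2.83. That fit kept only blastocyst 1, the library lowest in miR-205, for its stage, so its folds over blastocyst give no separate support.

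miR-200a, which has the AACACTG seed in vertebrates, was highest at cleavage. It stood at 4829, 7543 and 3551 CPM in the cleavage libraries, 2146, 2439 and 1809 CPM at blastocyst, and 3062, 2296 and 2370.1 CPM at gastrulation. At organ formation it stood at 4199, 2055 and 2301 CPM, at hatching at 2995, 4732 and 2679.8 CPM, and in larvae at 3363, 3138 and 2863 CPM. All 3 cleavage libraries were above all blastocyst, gastrulation and larva libraries, while single libraries of organ formation and hatching reached into the cleavage range. The stage means were 5308 ± 2038, 2131 ± 315, 2576 ± 422, 2852 ± 1173, 3469 ± 1105 and 3121 ± 250.4 CPM in developmental order (SD, n = 3 each).

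At blastocyst miR-200a fell by 1.32 against cleavage on the log2 scale (SE 0.36, edgeR adjusted p = 0.0368). It was the 1 of 4 members called lower at this step, where 1.52% of all tested microRNAs were, and it was called in no other of the 15 pairs. The median log2 fold change of the 4 members was −0.61, against 0 for all tested microRNAs and −0.26 for the named ones. The call rested on few libraries and ended without any of cleavage 1, cleavage 2, blastocyst 2, blastocyst 3, larva 1 or larva 2, at log2 fold changes of −1.82 to −0.98 over the 18 single omissions. In larvae the log2 fold change against cleavage was −0.77 (SE 0.36, edgeR adjusted p = 0.0742), which did not pass. It passed in 9 of 30 alternatives, among them without cleavage 1, cleavage 3 or blastocyst 1, and lay between −1.35 and −0.43 with any 1 library left out. Among the named microRNAs, miR-200a ranked 35 of 144 in larvae and 12 of 137 at cleavage.

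miR-200b, which has the AATACTG seed in vertebrates and had more counts than miR-429, did not pass in any pair of stages. Over the 15 pairs 0.305% to 61.3% of all tested microRNAs were called in either direction. It stood at 2127, 3184 and 1726 CPM in the cleavage libraries, 1639, 1542 and 1328 CPM at blastocyst, and 4134, 1783 and 2121 CPM at gastrulation. At organ formation it stood at 3403, 2265 and 1983 CPM, at hatching at 2497, 3363 and 2174 CPM, and in larvae at 2141, 2153 and 1785 CPM. The blastocyst libraries were below all others. On the TMM scale gastrulation 1, the highest library, had 212 counts and lay far above the other gastrulation libraries. As a share of raw counts it held 0.117%, against 0.114% in gastrulation 2 and 0.151% in gastrulation 3. The TMM factors of these libraries were 0.283, 0.638 and 0.714. The highest stage mean was 2679 ± 1271 CPM at gastrulation and the lowest 1503 ± 159 CPM at blastocyst (SD, n = 3 each). A missed threshold does not show a constant level, since the SD at gastrulation was larger than the difference between the highest and the lowest stage mean.

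miR-429, which shares the AATACTG seed in vertebrates, was the rarest member. In the 12 libraries of the first 4 stages it had 12 to 88 counts, and the exact 95% Poisson interval of the lowest count, 12, was 6.20 to 21.0, which covers counting error only. At hatching it had 3610, 3064 and 2465 counts and in larvae 3115, 3512 and 4591. Its stage means were 225 ± 185, 152 ± 23.9, 261 ± 196, 217 ± 49.3, 379 ± 102 and 314 ± 26.3 CPM in developmental order (SD, n = 3 each). None of its 15 pairs passed, and at cleavage and gastrulation 1 library each stood high, with 425.8 CPM in cleavage 2 and 487.5 CPM in gastrulation 1. The value of gastrulation 1 came from 25 counts at a TMM factor of 0.283, the lowest factor of its stage. Across the 4 members and 15 pairs, 9 of 60 tests passed, 8 of them for miR-205, which is 15%, against 32.3% of the tests of all tested microRNAs. On the TMM scale, blastocyst was the stage with the lowest mean for each member. Cleavage was the highest for miR-200a and hatching for miR-205 and miR-429. With the stages of each member ordered by mean log2 CPM, no neighbouring pair passed the test. Between successive stages, 15 of 19 uncalled member values changed sign under some alternative setting, so these means give no direction for them.

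How the members stood to each other within a library does not depend on how libraries are scaled. Mature microRNAs are of nearly the same length, so no length term enters, and a difference in how well each is ligated would cancel when the same ratio is compared between libraries. Of the counts of the 4 members, the share of miR-200a was 57.9% ± 1.66 for cleavage, 44.3% ± 5.56 for blastocyst and 38.9% ± 4.0 for gastrulation libraries (SD, n = 3 each). At organ formation it held 31.6% ± 5.12, at hatching 28.7% ± 3.32 and in larvae 34.4% ± 4.62. miR-205 held 13.8% ± 1.58, 21.1% ± 10.5, 19.1% ± 4.94, 37.1% ± 5.22, 45.7% ± 4.27 and 39.8% ± 7.33 at the same stages. The largest member was therefore miR-205 at hatching and miR-200a at cleavage. miR-200b held 22.3% to 38.4% as a stage mean and miR-429 2.35% to 3.57%.

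**Figure D2:**
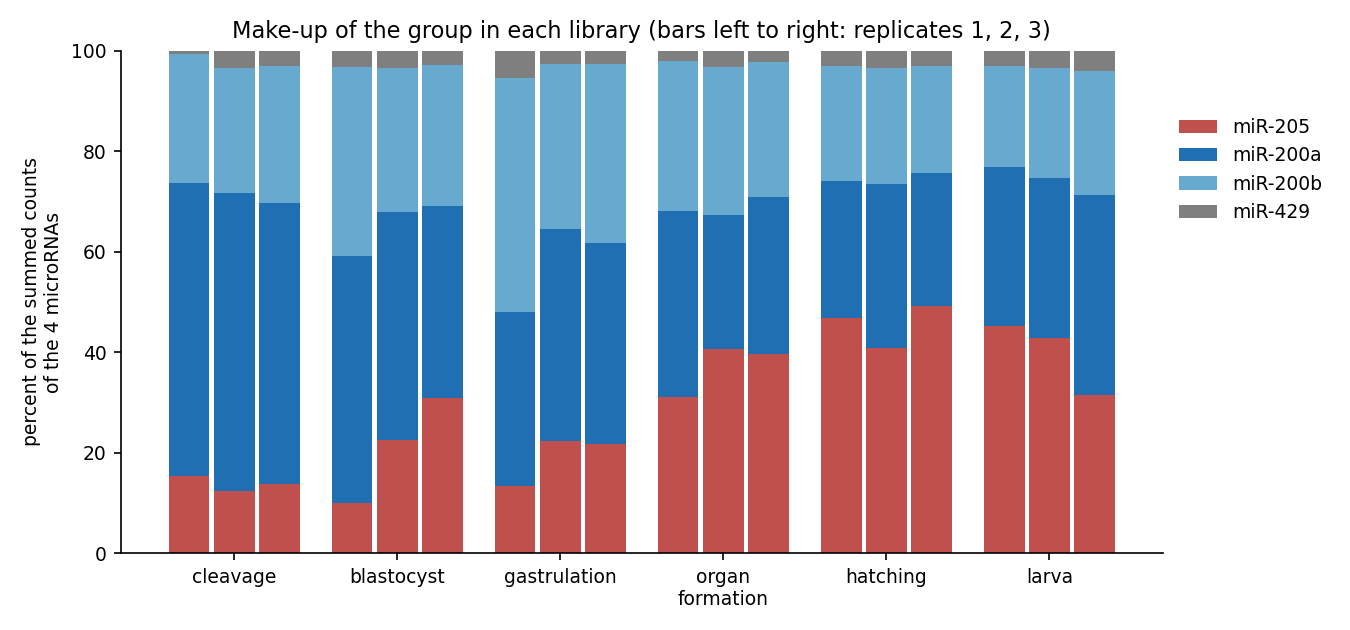
Share of the summed counts of the 4 microRNAs held by each, in percent, for every library in developmental order. The share of miR-200a averages 28.7% at hatching and 57.9% at cleavage, and that of miR-205 averages 45.7% at hatching and 13.8% at cleavage.

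Over the 6 stages, the log2 ratio of miR-205 to miR-200a differed (permutation test of the F ratio with 100000 permutations, F = 12.7, adjusted p = 0.00123 over the 6 ratios), and so did that of miR-205 to miR-200b (permutation test, F = 8.03, adjusted p = 0.00460). As a log2 ratio to miR-200a, miR-205 stood at −2.07 ± 0.18, −1.20 ± 1.00, −1.06 ± 0.26, 0.23 ± 0.44, 0.67 ± 0.30 and 0.20 ± 0.47 in developmental order (SD, n = 3 each). This is a geometric mean ratio of 1.59 at hatching, against 0.238 at cleavage. Among the 9 pairs of a later and an earlier stage, the libraries did not overlap in 8 for the ratio to miR-200a and in 8 for the ratio to miR-200b. The count was 4 to 6 of 9 for the other 4 ratios, and 6 for miR-200b to miR-429, whose test did not pass. Both ratios passed in all 21 alternatives tried. The alternative without blastocyst 2, blastocyst 3 and gastrulation 2 kept only blastocyst 1 for its stage. That library was the lowest blastocyst library in both ratios, so this omission gives no separate support.

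The ratio of miR-200a to miR-200b differed between stages as well (permutation test, F = 10.6, adjusted p = 0.00123). It was 2.27, 2.37 and 2.05 in the cleavage libraries, 1.31, 1.58 and 1.36 at blastocyst, and 0.741, 1.29 and 1.12 at gastrulation. The organ formation libraries had 1.23, 0.908 and 1.16, the hatching libraries 1.20, 1.41 and 1.23, and the larva libraries 1.57, 1.46 and 1.60. The cleavage libraries stood above all others, and the larva libraries above those of gastrulation, organ formation and hatching. In mammals these microRNAs are cut from a shared precursor transcript, and no genome positions are given for the carp rows in the sources used here. The ratio of miR-200a to miR-429 also passed (permutation test, F = 2.71, adjusted p = 0.0351), but in only 6 of 21 alternatives. The ratios of miR-205 and of miR-200b to miR-429 did not pass (permutation tests, adjusted p = 0.171 each).

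**Figure D3:**
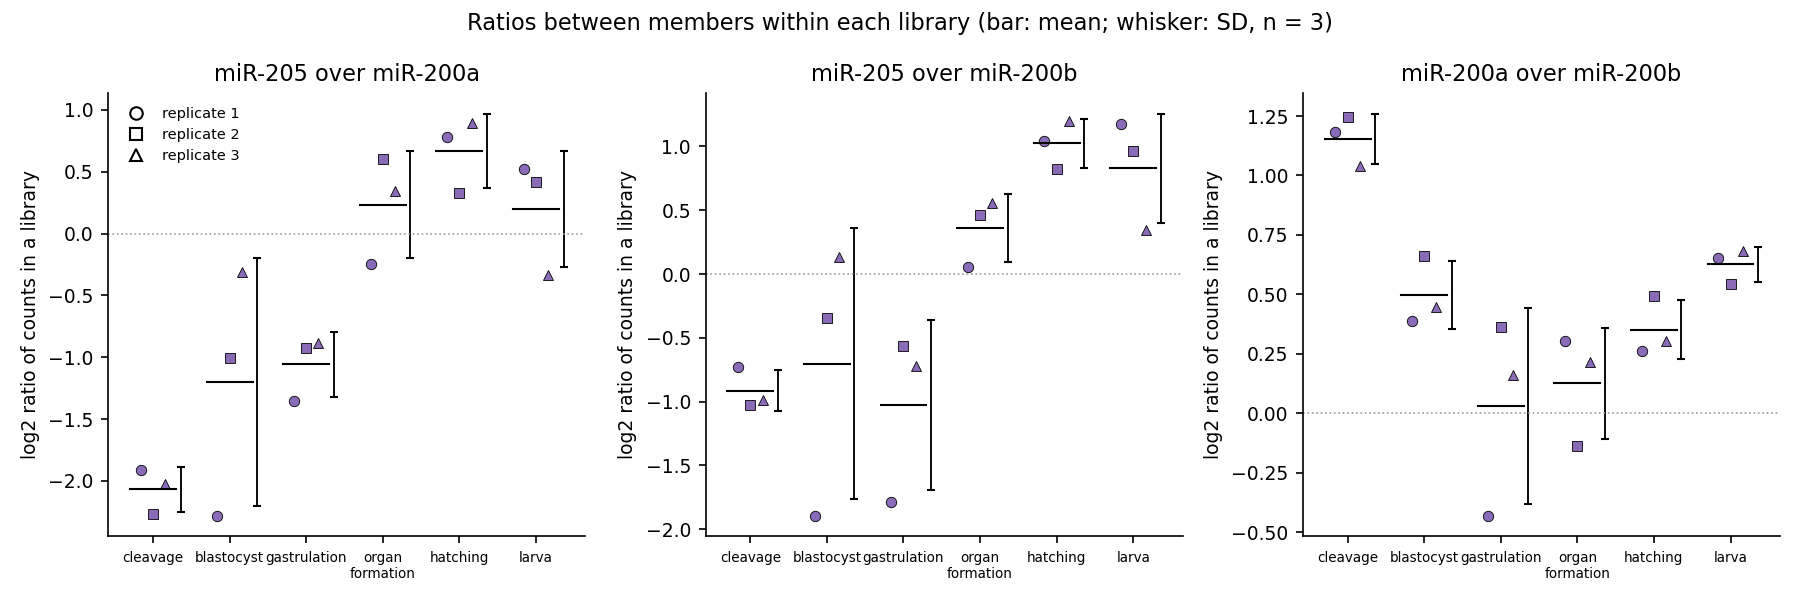
Log2 ratio of counts between members within each library (points), with the mean of each stage (horizontal bars) and its SD (whiskers, n = 3), stages in developmental order. The log2 ratio of miR-205 to miR-200a averages 0.67 at hatching and −2.07 at cleavage, and that of miR-200a to miR-200b is highest in the cleavage libraries, with the larva libraries above those of hatching.

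As a share of all counts, the 4 members together were lowest at blastocyst and gastrulation. Cleavage libraries held 1.55% ± 1.13, blastocyst libraries 0.163% ± 0.0668 and gastrulation libraries 0.340% ± 0.0863 (SD, n = 3 each). Organ formation libraries held 1.49% ± 0.499, hatching libraries 1.73% ± 0.0581 and larva libraries 1.61% ± 0.210. These shares differed between stages (F = 17.3, p = 0.00019 by permutation). With miR-430 and miR-738 taken out of the total, the shares were 3.30% ± 1.86, 1.32% ± 0.0965, 2.01% ± 0.563, 3.04% ± 1.56, 1.84% ± 0.0470 and 1.64% ± 0.229 in the same order, and the test did not pass (permutation test, F = 3.08, p = 0.0540). Against library totals in place of TMM factors, all 4 members were lower at blastocyst than at cleavage, with log2 fold changes of −3.70 for miR-200a, −3.02 for miR-200b, −2.43 for miR-205 and −2.97 for miR-429. On that scale 29.9% of all tested microRNAs were called lower and their median was −1.97.

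**Figure D4:**
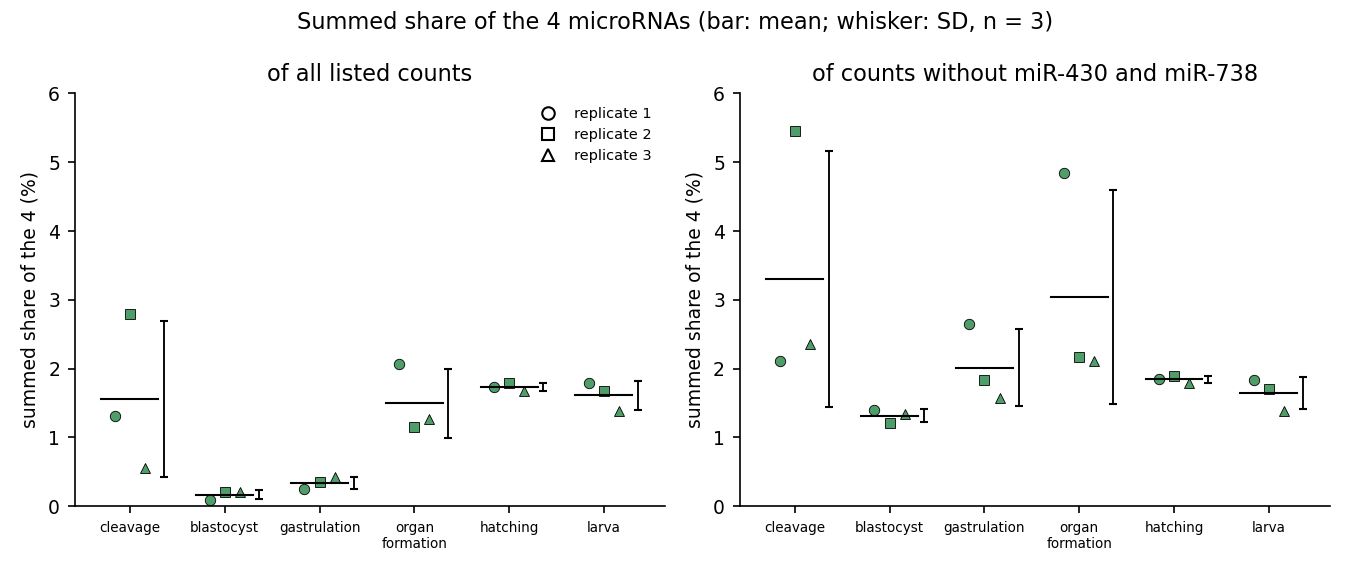
Summed counts of the 4 microRNAs as a percent of each library (points) with the stage mean (horizontal bars) and SD (whiskers, n = 3), over all counts on the left and over counts without miR-430 and miR-738. Over all counts the share is 1.73% at hatching and 0.163% at blastocyst, and without the 2 abundant microRNAs the means lie between 1.32% and 3.30%.

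The direction of miR-205 was the same on every scale tried. In all 30 alternatives it was higher in each of organ formation, hatching and larva than in each of cleavage, blastocyst and gastrulation, at log2 fold changes of 0.60 to 4.60. The number of these 9 comparisons called varied between 1, with no filter on low counts, and 9.

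**Figure D5:**
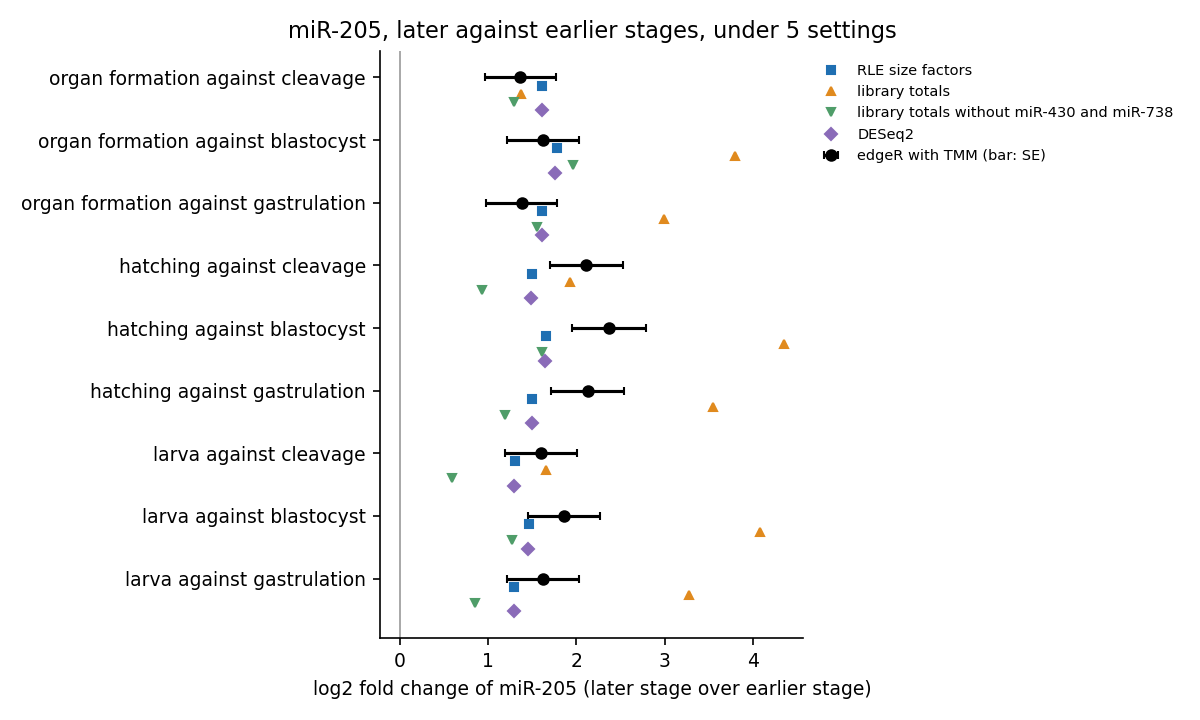
Log2 fold change of miR-205 in each later stage over each earlier stage, with edgeR and TMM (black, bars are SE) and with 4 of the alternative settings. All values are above 0, and the lowest is 0.60, for larva against cleavage scaled to library totals without miR-430 and miR-738.

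Across the 6 stage means of log2 CPM, the named microRNAs whose pattern was most like that of miR-205 were miR-221, miR-30d and miR-10c, with Pearson r of 0.99, 0.97 and 0.95 among 110 candidates. miR-221 averaged 157, 134, 155, 399, 609 and 345 CPM over the stages in developmental order. Those most like miR-200a were miR-457b (r = 0.92), miR-103 (r = 0.80) and miR-30b (r = 0.64). For miR-200b they were miR-203a (r = 0.94), miR-203b-3p (r = 0.88) and miR-20a-5p (r = 0.75), the first 2 of an epidermal family, and for miR-429 miR-182-3p (r = 0.96), miR-96 (r = 0.96) and miR-126-3p (r = 0.95). Between members, r was 0.89 for miR-205 and miR-429, 0.43 for miR-200a and miR-200b, 0.54 for miR-200b and miR-429, and 0.16 for miR-200a and miR-205. These values describe 6 points that share libraries and scaling factors.

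Other microRNAs tied to epithelia or mesenchyme gave the setting. The 4 other epithelial microRNAs were miR-184, of the cornea and lens, miR-203a and both arms of miR-203b, a family that promotes differentiation of skin. Of these, 0 of 4 were called at blastocyst against cleavage, where 7.62% of all tested microRNAs were called in either direction. At gastrulation against blastocyst 2 were higher, where 3.05% of all tested microRNAs were. At hatching against organ formation 1 was higher, where 18.3% were. Their median log2 fold change at gastrulation against blastocyst was 1.60, against 0 for all tested microRNAs and 0.51 for the 4 members, of which 0 were called. miR-203b-3p rose by 1.83 at this step (SE 0.51, edgeR adjusted p = 0.0464), with means of 2688 ± 1769 CPM at gastrulation and 756 ± 197 CPM at blastocyst (SD, n = 3 each). At hatching against organ formation the list median was −0.31, against 0.87 for all tested microRNAs and 0.83 for the named ones. The call there was miR-184, at 1.24, while miR-203b-3p had −0.36 and was not called. Against gastrulation, 1 of the 4 was called higher and 1 lower at hatching, where 18.9% and 21.0% of all tested microRNAs were. The same counts held in larvae, where 21.6% and 24.1% were. In larvae against cleavage 1 of the 4 was called higher, where 31.1% of all tested microRNAs were, at a list median of 0.39. This was miR-184, which rose by 1.87 (SE 0.37, edgeR adjusted p = 0.00110), with 7616 ± 544 CPM in larvae and 2089.7 ± 464 CPM at cleavage, while miR-203b-3p had a log2 fold change of 0.12 and was not called.

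The 7 mesenchymal microRNAs, which include miR-199-5p and miR-143 of connective tissue and smooth muscle, had 0 calls in each of the first 3 steps. Of all tested microRNAs 7.62%, 7.01% and 6.10% were called in either direction at these steps. At hatching against organ formation 2 of the 7 were called higher, where 18.3% of all tested microRNAs were. In larvae against cleavage 4 were called higher, where 31.1% were. miR-199-5p rose by 2.70 at hatching against organ formation (SE 0.65, edgeR adjusted p = 0.00976), with 70486 ± 23974 CPM at hatching and 10831 ± 4346 CPM at organ formation (SD, n = 3 each). miR-143 had 10978 ± 1619 CPM in larvae and 18919.6 ± 9773 CPM at cleavage, with no call. The median log2 fold change in larvae against cleavage was 2.60 for the mesenchymal list, against 0.15 for all tested microRNAs, 0.74 for the named ones and 0.13 for the 4 members. Neither hatching against organ formation nor larva against hatching called any member, and at larva against hatching 0.305% of all tested microRNAs were called.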

How the data were processed

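The labels put 18 small RNA libraries into 6 stages of 3. Per the labels' protocols, equal amounts of TRIzol RNA were pooled by stage, ligated to adapters and sequenced as 50 bp single-end reads. For each library the authors deposited whole-number counts per microRNA, without normalization. They also deposited TPM values, proportional to the counts within 0.156% and with no length term, used here only for the library totals they imply, which exceed the listed counts by 2.13% to 50.8%. FastQC and edgeR are named in the submitters' processing notes. The aligner, the build and how reads shared by near-identical microRNAs were assigned are not given in the sources, so the split between miR-200a, miR-200b and miR-429 is uncertain to that extent. A predicted row not listed in a library was taken as 0.

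Counts were fitted with edgeR 4.0.16 in R 4.3.3 (TMM, filterByExpr with a minimum of 10, 1 mean per stage, robust glmQLFit, 12 residual degrees of freedom, common biological coefficient of variation 0.855). This left 328 microRNAs, 127 of them named. P-values were adjusted by Benjamini-Hochberg over all 328 in each comparison (threshold 0.05), and standard errors were derived from the log2 fold change and the quasi-likelihood F. Ratios between members used counts plus 0.5 and, like the summed share, 100000 permutations of the libraries (numpy 2.4.6). Likeness was Pearson r over 6 stage means, among tested named microRNAs with a stage mean of at least 100 CPM, and the 3 highest are named. Every row of the miR-200 family and miR-205 is named, and the 2 most abundant of each other list. The scripts were tested on simulated data.

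No pair of replicates was close to sampling noise (chi-square over degrees of freedom 35.3 or more). The highest values were those of larva 3, 560 against larva 1 and 551 against larva 2, while larva 1 against larva 2 had 74.3. Replicate numbers showed no clear pairing of the libraries. The members, the lists and the naming rule were chosen with earlier results of these data known. Alternatives were TMM with singleton pairing, RLE size factors, library totals, totals without miR-430 and miR-738, DESeq2 1.42.0, no filter, a filter of 10 CPM in 3 libraries, a replicate block, each library left out, blastocyst 2, blastocyst 3 and gastrulation 2 left out together, and the 2 stages alone. The totals behind the TPM values and the named microRNAs alone were added after seeing the data.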

Additional observations from a re-analysis of the deposited data

How the results depend on the processing

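miR-205 differed over the 6 stages in all 29 alternatives (edgeR or DESeq2 adjusted p of 3.33e-09 to 0.0255), while miR-200a did so in 17 of 29 and was called lower at blastocyst against cleavage in 18 of 30. Over the 6 stages 2 members were called, 1 with RLE size factors or no filter, 3 with TMM singleton pairing or totals without miR-430 and miR-738, and 4 with library totals or the totals behind the TPM values. miR-200b passed in 4 of these 29 alternatives and miR-429 in 2. The share of all tested microRNAs passing over the 6 stages, 75.3% in the main fit, was not computed for the alternatives. At blastocyst against cleavage 1 was called lower, as were 1.52% of all tested microRNAs. With either library total 4 were (29.9% of all with library totals). With RLE, no filter, at least 10 CPM, named microRNAs alone or the 2 stages alone 0 were. At gastrulation against blastocyst 0 were called (3.05% of all higher, 3.96% lower), and 1 with TMM singleton pairing (5.18% and 3.96%). At organ formation against gastrulation 0 were called (1.83% of all higher), and 3 with either library total (12.5% with library totals). With RLE (3.96%), at least 10 CPM (2.61%), DESeq2, named microRNAs alone or the 2 stages alone 1 was. In larvae against cleavage 1 was called, 2 with RLE, at least 10 CPM, DESeq2 or totals without miR-430 and miR-738, and 0 with no filter. Of all tested microRNAs 31.1% were called higher and 29.9% lower there. With RLE and the settings listed with it the shares were 24.4% to 29.9% higher and 32.3% to 37.2% lower, and with no filter 1.80% and 2.70%. Of the 60 member tests over all stage pairs 9 passed, 17 with TMM singleton pairing, 32 with library totals, 31 with the totals implied by TPM and 1 with no filter. Of the tests of all microRNAs 32.3% passed, 32.8% with singleton pairing, 38.0% with library totals, 38.7% with the totals implied by TPM and 1.59% with no filter. The summed share had F = 3.08 without miR-430 and miR-738 (permutation p = 0.0540). The cause of these changes was not tested.

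With each library left out in turn, 1 to 2 members were called over the 6 stages and in larvae against cleavage. It was 0 to 1 at blastocyst against cleavage and at organ formation against gastrulation, and 0 at the other successive steps. Over all pairs 8 to 13 tests passed (13.3% to 21.7%, against 28.2% to 32.4% for all microRNAs). Of the 6 ratios 3 to 5 did (4 with all libraries). The F of the summed share ranged from 14.2 to 31.6. The call of miR-205 in larvae against cleavage was lost in 4 alternatives, while its log2 fold change stayed above 0. These were without cleavage 1 (1.09), named microRNAs alone (0.98), totals without miR-430 and miR-738 (0.60) and no filter. Its call at organ formation against cleavage was lost without cleavage 1 or cleavage 3, with either library total, with no filter and with the 2 stages alone. Of 19 uncalled member and step values, 15 changed sign under some alternative, and no direction is given for them.

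The replicate numbers did not pair the libraries: the deviations of same-numbered libraries had a median correlation of 0.01, over 0.1 in 6 of 45 pairs, and 7 of 18 libraries correlated best with their own number. With the replicate block, miR-200a had a log2 fold change of −1.29 at blastocyst against cleavage (edgeR adjusted p = 0.0398), the number of members called did not change, and 21 in place of 25 microRNAs were called at that step. Low counts of miR-429 in the first 4 stages limit what could be detected for it.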
